A study of Mus musculus with 9 samples.

Results

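The cluster around miR-532, miR-362 and miR-501 is a group of miRNA hairpins in the X-linked gene Clcn5, which encodes a chloride/proton exchanger. Its members were taken by name from a table of small RNA counts in mouse quadriceps, and comprised 8 of the 1966 mature miRNAs listed: mmu-miR-532-5p, mmu-miR-532-3p, mmu-miR-362-5p, mmu-miR-362-3p, mmu-miR-501-5p, mmu-miR-501-3p, mmu-miR-500-3p and mmu-miR-188-5p. The species prefix mmu is left out from here on. A hairpin can give a mature miRNA from its 5′ arm (5p) and from its 3′ arm (3p), so that these 8 come from 5 hairpins. The remaining arms, miR-500-5p and miR-188-3p, were also in the table and are given beside them.

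Muscleblind-like (MBNL) proteins bind RNA and regulate alternative splicing, and their loss of function is a central feature of myotonic dystrophy. Quadriceps of 90-day-old mice were compared in 3 groups of 3 libraries. WT mice were C57BL/6J with Mbnl1+/+ and Mbnl2+/+. Mbnl1KO mice were C57BL/6J, homozygous for an Mbnl1 allele lacking exon 3 (ΔE3/ΔE3), and Mbnl2+/+. Mbnl2KO mice were labelled B6.C-Tg(CMV-cre)1Cgn/J, a strain with Cre under the CMV promoter, and were Mbnl1+/+. Their Mbnl2 alleles were labelled ΔE2/ΔE2 in replicate 1, ΔE2/ΔE3 in replicate 2 and ΔE2/ΔE4 in replicate 3, whereas the study's text describes these mice as ΔE2/ΔE2 throughout. Which is right is not settled here. By these labels strain background and the loss of Mbnl2 cannot be told apart, although the study's text calls the WT mice littermates. The table measures no mRNA, so neither knockout could be checked by its own transcript. The muscle is a mixture of cell types, and fewer cells of a type and less RNA per cell cannot be told apart.

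In background, clustered hairpins are often cut from one primary transcript by the nuclear enzyme Drosha. Dicer then removes the loop, and usually one arm of the resulting duplex is retained in Argonaute, the protein that carries a mature miRNA to its targets. The amount of each arm therefore depends on transcription, on processing of each hairpin and on the stability of each strand. Bases 2 to 8 of a mature miRNA, the seed, are the main determinant of which mRNAs it pairs with.

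In GRCm39, Clcn5 lies on the minus strand at chrX:7019726-7185661. In the direction of transcription the hairpins come in the order Mir532 (chrX:7114641-7114736), Mir188 (chrX:7114228-7114295), Mir362 (chrX:7108221-7108285), Mir501 (chrX:7107482-7107590) and Mir500 (chrX:7103922-7104013), all on the minus strand and 10815 bp from end to end. All 5 hairpins were in a single intron in each of the 8 annotated Clcn5 transcripts, of 10, that span them. The gap between Mir188 and Mir362, 5942 bp, was the longest, and that between Mir532 and Mir188, 345 bp, the shortest. Expression of Clcn5 itself was not measured.

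Mature sequences from RefSeq (GRCm38.p6) were matched by name for 7 of the 8 members, all but miR-532-5p. Those that share a seed are shown together, since miRNAs with the same seed can have targets in common, with the seed in capitals.
miR-501-3p: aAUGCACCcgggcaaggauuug
miR-500-3p: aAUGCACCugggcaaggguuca
miR-362-5p: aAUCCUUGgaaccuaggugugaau
miR-500-5p: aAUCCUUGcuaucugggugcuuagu
miR-362-3p: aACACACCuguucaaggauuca
miR-329-3p: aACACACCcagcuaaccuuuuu

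The first pair, miR-501-3p and miR-500-3p, has the same length of 22 bases and differed at 4 positions counted from the 5′ end of miR-501-3p (C9U, A18G, U21C and G22A), all outside the seed. The second pair, miR-362-5p and miR-500-5p, was identical over the first 8 bases. The last sequence, miR-329-3p, is not a member and is shown because it has the seed of miR-362-3p. The next sequences have seeds found in no other member or second arm among those with a matched sequence, again in capitals. Outside the cluster, miR-7061-3p, listed at 0, has the seed of miR-188-5p.
miR-532-3p: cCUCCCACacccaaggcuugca
miR-501-5p: aAUCCUUUgucccugggugaaa
miR-188-5p: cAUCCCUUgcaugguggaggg

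The hairpins of miR-362 and miR-501 are shown because they hold members of both arms in which the largest decreases were seen. Capitals mark the mature arms, the 5p arm first.
Mir362: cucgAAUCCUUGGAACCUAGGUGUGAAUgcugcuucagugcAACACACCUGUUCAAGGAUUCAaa
Mir501: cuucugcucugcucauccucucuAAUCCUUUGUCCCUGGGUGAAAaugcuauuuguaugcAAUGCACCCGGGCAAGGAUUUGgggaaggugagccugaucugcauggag

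MBNL proteins are known to bind a short motif in which GC is flanked by pyrimidines. Each of its 4 spellings was counted on the RNA strand of each hairpin, overlapping matches included. The spelling UGCU was found in Mir532 (1 match), Mir362 (2), Mir501 (3) and Mir500 (4). The spelling UGCC was found in Mir532 (1), and both that with CGCU and that with CGCC at 0 in all 5. Mir188 held 0 matches in all. Of 1005 mouse hairpins, 68.1% held at least 1 match. At least as many matches as in Mir532 or Mir362 were held by 35.5%, as in Mir501 by 14.6% and as in Mir500, which has no tested member, by 4.88%. A match is a description of the sequence and not a measured binding site, and the hairpins differ in length.

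The libraries held between 4761271 and 6277018 counts. Between 61.4% and 73.7% of these were miR-1a-3p, a miRNA of striated muscle. WT libraries had 69.7% to 71.3% of miR-1a-3p, Mbnl1KO libraries 61.4% to 68.6% and Mbnl2KO libraries 67.2% to 73.7%. The correction by the trimmed mean of M-values (TMM), which scales libraries by the miRNAs between the extremes, gave factors between 0.920 and 0.969 for WT, between 1.04 and 1.27 for Mbnl1KO and between 0.826 and 1.07 for Mbnl2KO. Mbnl1KO replicate 1 had both the lowest share of miR-1a-3p and the highest factor. The scaling therefore bears directly on every comparison with Mbnl1KO, and member values are given both as normalized counts (TMM, on 1 scale for all 9 libraries) and as counts scaled to the library total (CPM).

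The cluster was a minor part of each library. Its 8 members together had 772, 783 and 901 counts in the WT libraries, 511, 584 and 733 in Mbnl1KO and 611, 789 and 822 in Mbnl2KO. After normalization the sum lay between 800.4 and 967 in WT, between 510.0 and 568 in Mbnl1KO, and between 780.1 and 809.5 in Mbnl2KO. On this scale the 3 Mbnl1KO libraries lay below all 6 others. In CPM, however, the sum was 127, 147 and 162 in WT and 124, 97.0 and 93.0 in Mbnl1KO, so that the groups were separated by only a narrow margin. It was 132, 145 and 112 in Mbnl2KO, which overlapped both.

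Most of the cluster's counts came from a pair of arms. Over the 9 libraries miR-532-5p supplied 43.3% ± 3.17 (SD, n = 9) of the members' counts and miR-501-3p 30.3% ± 4.03. The arms of miR-362 followed with 11.5% ± 1.59 for miR-362-5p and 9.95% ± 1.103 for miR-362-3p, and the order of this pair was not the same in every library. The remaining members, miR-532-3p, miR-500-3p, miR-501-5p and miR-188-5p, supplied 2.57%, 1.22%, 0.989% and 0.125%. By mean normalized count miR-532-5p ranked 114 and miR-501-3p ranked 128 among the 909 miRNAs with any count, while miR-188-5p ranked 508. Ligation and amplification favour some sequences, so levels of different miRNAs are compared here only as counts.

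**Figure D1:**
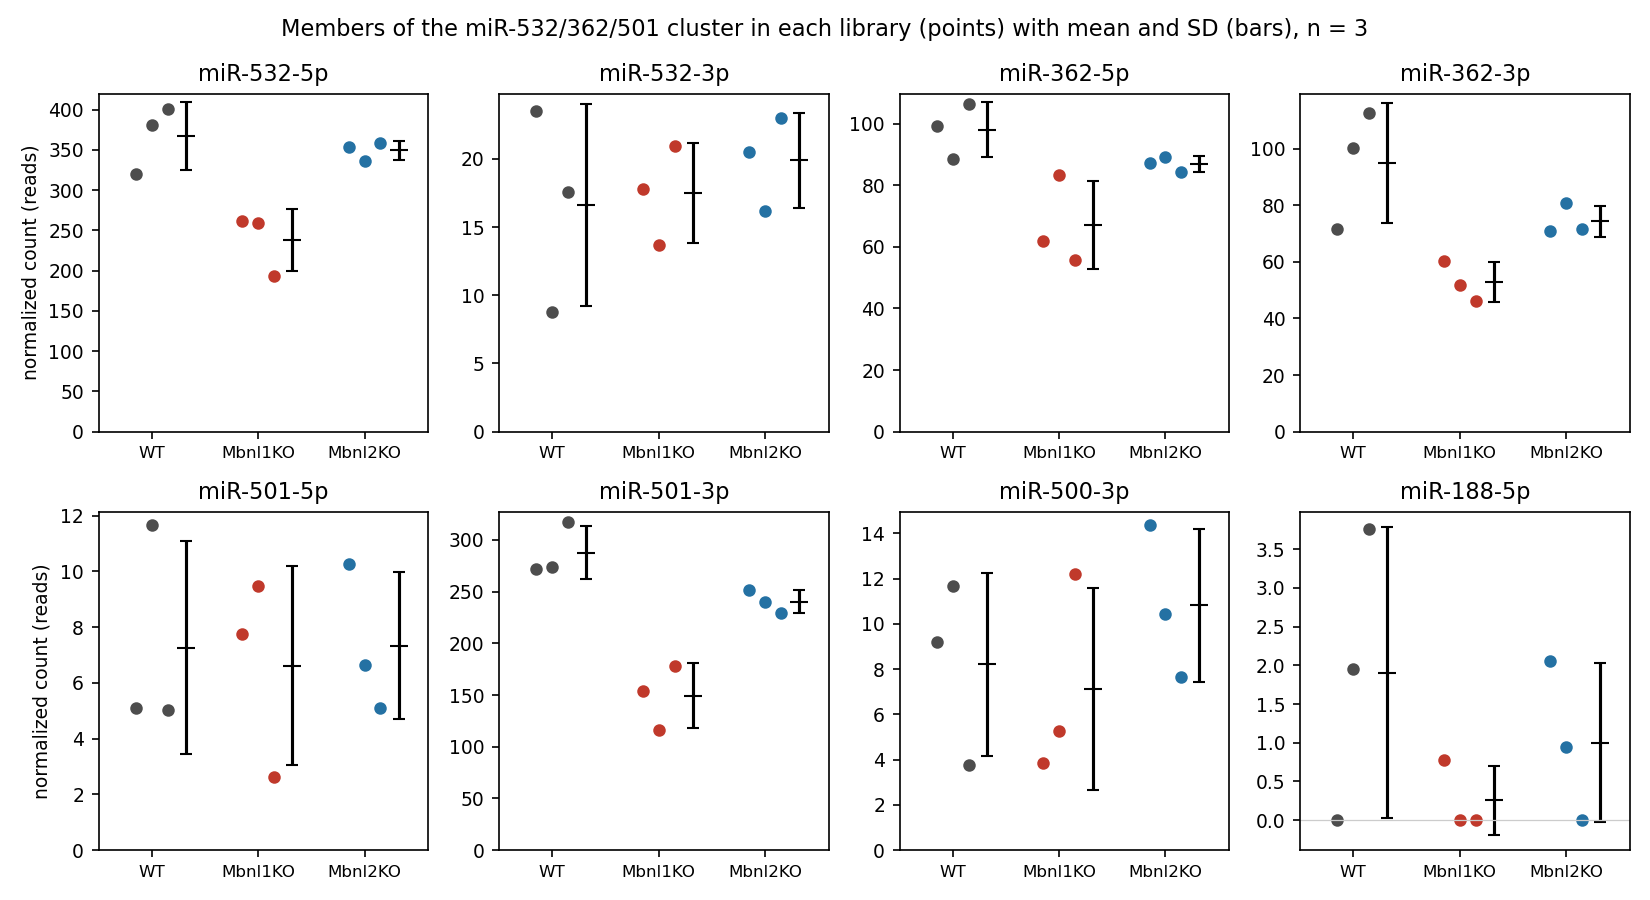
Normalized counts (reads, TMM scale of all 9 libraries) of the 8 members, 1 panel each, with every library as a point in WT, Mbnl1KO and Mbnl2KO and the mean and SD (n = 3) as bars. The Mbnl1KO points of miR-532-5p, miR-362-5p, miR-362-3p and miR-501-3p lie below all WT points, whereas the groups overlap for the other members, which are at or below 23.5.

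The loss of Mbnl1 was first compared with WT, to ask which miRNAs depend on this protein in adult muscle. In the Mbnl1KO libraries 4 members were lower, namely both arms of miR-362 with miR-501-3p and miR-532-5p, by 0.62 to 1.01 on the log2 scale. The fifth member with enough counts to be tested, miR-532-3p, was not called. The remaining members, miR-501-5p, miR-500-3p and miR-188-5p, had mean normalized counts of 10 or less and were not tested. By edgeR (quasi-likelihood F-test, p adjusted by Benjamini-Hochberg over all 317 miRNAs tested), 4 of the 5 tested members passed an adjusted p of 0.05 as lower. Across all tested miRNAs 14.5% passed as lower and 33.4% in either direction. The median log2 fold change of the 5 members is that of miR-532-5p, -0.69, beside -0.01 over all tested miRNAs.

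The most marked difference was in miR-501-3p, the dominant arm of its hairpin. It had 266, 281 and 253 counts in WT and 199, 110 and 204 in Mbnl1KO. These correspond to 272, 273 and 317 normalized counts in WT and 154, 116 and 178 in Mbnl1KO. The groups did not overlap, and the lowest library was Mbnl1KO replicate 2. The log2 fold change was -1.01 (SE 0.190) with an adjusted p of 1.7e-06 by edgeR, and 12 of the 317 tested miRNAs had a more negative fold change.

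The 3p arm of miR-362 had 70, 103 and 90 counts in WT and 78, 49 and 53 in Mbnl1KO. Normalized counts of miR-362-3p were 71.6, 100.2 and 113 in WT and 60.4, 51.6 and 46.3 in Mbnl1KO. The raw counts of the groups overlapped and the normalized counts did not, because Mbnl1KO replicate 1 carried the largest scaling factor. The log2 fold change was -0.90 (SE 0.268), with an adjusted p of 0.00399 by edgeR.

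The most abundant member, miR-532-5p, had 313, 391 and 320 counts in WT and 337, 246 and 222 in Mbnl1KO. Normalized counts were 320, 380 and 401 in WT and 261, 259 and 194 in Mbnl1KO. Here again only the normalized values were separated. The log2 fold change was -0.69 (SE 0.180), with an adjusted p of 0.000805 by edgeR.

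The 5p arm of miR-362 was close to the threshold. It had 97, 91 and 85 counts in WT and 80, 79 and 64 in Mbnl1KO, which are 99.2, 88.5 and 106 normalized counts in WT and 62.0, 83.3 and 55.9 in Mbnl1KO. The groups did not overlap, although Mbnl1KO replicate 2 was near the lowest WT library. The log2 fold change of miR-362-5p was -0.62 (SE 0.257), with an adjusted p of 0.0482 by edgeR. The call was lost on leaving out WT replicate 1 (-0.57, adjusted p 0.144), WT replicate 2 (-0.69, 0.0680), WT replicate 3 (-0.58, 0.107), Mbnl1KO replicate 1 (-0.57, 0.136) or Mbnl1KO replicate 3 (-0.48, 0.197), and under DESeq2 (-0.66, 0.0598), which called 3 members beside 13.2% of all tested as lower. Its direction was the same in each.

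Unlike its partner arm, miR-532-3p was not called, and the sign of its small difference changed with the scaling. It had 23, 9 and 14 counts in WT and 23, 13 and 24 in Mbnl1KO, and 23.5, 8.76 and 17.5 against 17.8, 13.7 and 20.96 normalized counts. The groups overlapped throughout. The log2 fold change was 0.02 (SE 0.385), with a 95% interval of -0.74 to 0.77 that reaches the value of miR-532-5p. At these counts a decrease like that of the 5p arm could not be told from no change.

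Altogether, the normalized counts of 4 of the 5 tested members did not overlap between Mbnl1KO and WT and were lower, beside 21.8% of all tested miRNAs.

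The untested members were near the limit of detection. miR-501-5p had 5, 12 and 4 counts in WT and 10, 9 and 3 in Mbnl1KO. miR-500-3p, which has the seed of miR-501-3p, had 9, 12 and 3 in WT and 5, 5 and 14 in Mbnl1KO. miR-188-5p had 0, 2 and 3 in WT and 1, 0 and 0 in Mbnl1KO. The groups overlapped for each of these. With the filter lowered to 1 count, the log2 fold change by edgeR was -0.25 (95% interval -1.36 to 0.87) for miR-501-5p and -0.32 (-1.37 to 0.73) for miR-500-3p. These intervals reach from a decrease as large as that of miR-501-3p to an increase. Of the second arms, miR-500-5p had 1, 5 and 1 counts in WT, 0, 1 and 0 in Mbnl1KO and 3, 5 and 0 in Mbnl2KO. miR-188-3p was listed at 0 in all 9 libraries. Some miRNAs known from vessels and blood cells (miR-126a-3p, miR-126a-5p and miR-142a-3p) were listed at 0 too, so such an entry may not reflect the level in the tissue.

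In the Mbnl2KO libraries no member passed the test against WT: 0 of the 5 tested, beside 5.8% of all 293 miRNAs tested in either direction. At an unadjusted p under 0.05 the number of members was also 0, beside 17.7% of all tested, and DESeq2 called 0, beside 1.71% called lower. All 4 members that were lower in Mbnl1KO had negative values here too, but smaller ones.

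For miR-501-3p the Mbnl2KO libraries had 245, 253 and 180 counts, or 251, 240.2 and 229.8 normalized counts. All 3 were below the lowest WT library, a separation also seen as lower in 10.6% of all tested miRNAs, yet the log2 fold change of -0.26 (95% interval -0.58 to 0.06) had an adjusted p of 0.394 by edgeR. In CPM the separation was lost, with 41.1, 44.5 and 32.9 in Mbnl2KO against 43.3, 45.8 and 53.1 in WT. miR-532-5p had 344, 354 and 281 counts, or 353, 336 and 359 normalized counts, within the range of WT. Its log2 fold change was -0.08 (95% interval -0.39 to 0.23).

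The arms of miR-362 in Mbnl2KO had 85, 94 and 66 counts for miR-362-5p and 69, 85 and 56 for miR-362-3p. Their log2 fold changes were -0.18 (95% interval -0.61 to 0.25) and -0.35 (-0.83 to 0.12), and both groups overlapped WT. miR-532-3p had 20, 17 and 18 counts and a log2 fold change of 0.24 (-0.60 to 1.09). Among the low members, miR-501-5p had 10, 7 and 4, miR-500-3p 14, 11 and 6, and miR-188-5p 2, 1 and 0 counts. All of these intervals include decreases, so that a missed call does not show equal levels.

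Whether the knockouts differed from each other was tested directly. Mbnl1KO was lower than Mbnl2KO in 2 of the 5 tested members, beside 26.9% of 309 miRNAs called in either direction and 10.4% called lower. These were miR-501-3p, with a log2 fold change of -0.72 (SE 0.200, adjusted p 0.00896 by edgeR), and miR-532-5p, with -0.58 (SE 0.185, adjusted p 0.0212). Neither overlapped between the groups, nor did miR-362-3p, beside 20.1% of all tested miRNAs that were lower without overlap. The call of miR-532-5p was lost without Mbnl1KO replicate 3 (-0.47, adjusted p 0.103 by edgeR). For miR-362-3p the difference was -0.52 (95% interval -1.02 to -0.02, adjusted p 0.117), for miR-362-5p -0.41 (-0.90 to 0.08, adjusted p 0.212) and for miR-532-3p -0.20 (-0.95 to 0.56). The 3 comparisons share libraries, so their values are set side by side and not counted as separate evidence.

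**Figure D2:**
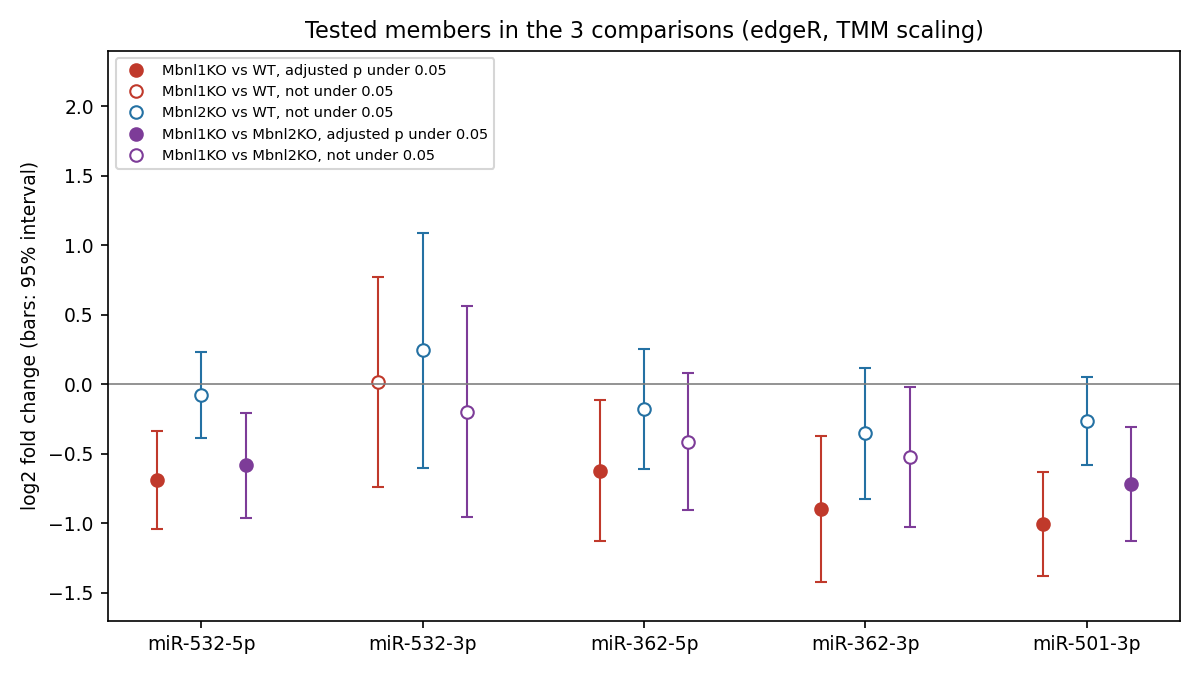
Log2 fold changes (TMM scaling, edgeR) of the 5 tested members in Mbnl1KO against WT, Mbnl2KO against WT and Mbnl1KO against Mbnl2KO, with 95% intervals as bars and filled points where the adjusted p was under 0.05. In Mbnl1KO against WT, miR-501-3p is lowest at -1.01, and 4 points are filled. No Mbnl2KO against WT point is filled.

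The size of these differences depended on how the libraries were scaled. In CPM, miR-501-3p was 43.3, 45.8 and 53.1 in WT and 33.8, 20.9 and 32.5 in Mbnl1KO, still without overlap, as were 5.05% of all tested miRNAs on this scale with Mbnl1KO lower. miR-532-5p was 50.9, 63.7 and 67.2 in WT and 57.2, 46.7 and 35.4 in Mbnl1KO, so that Mbnl1KO replicate 1 lay above WT replicate 1. The groups of miR-362-3p, with 11.4, 16.8 and 18.9 against 13.2, 9.30 and 8.44, and of miR-362-5p, with 15.8, 14.8 and 17.9 against 13.6, 14.99 and 10.2, overlapped in the same way.

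When library totals alone were used in the edgeR test of Mbnl1KO against WT, 1 of the 5 members was called, beside 3.47% of all tested miRNAs called lower. miR-501-3p kept its call at -0.70 (SE 0.231, adjusted p 0.0104). The other members were at -0.60 for miR-362-3p (adjusted p 0.104), -0.38 for miR-532-5p (0.175) and -0.32 for miR-362-5p (0.407), while miR-532-3p was at 0.33. Their direction stayed the same. Under totals the median over the whole of the tested table was itself 0.28, against -0.01 under TMM.

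A change of scaling moves all log2 fold changes by nearly the same amount, so that distances from the median and ranks are kept almost by construction. The difference between the log2 fold change of miR-501-3p and the median was -0.997 under TMM and -0.986 under totals. For miR-532-5p it was -0.68 and -0.67, for miR-362-3p -0.89 and -0.88, and for miR-362-5p -0.61 under both. In order from the lowest fold change, miR-501-3p was at rank 13 of 317 under TMM and 11 under totals, and miR-362-3p at rank 16 under both.

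Scaling by totals that leave out miR-1a-3p gave values between these. miR-501-3p was at -0.95, miR-362-3p at -0.84 and miR-532-5p at -0.62, all called by edgeR beside 10.1% of all tested as lower, and miR-362-5p at -0.55 was not (adjusted p 0.0986). The upper quartile of counts gave lower values, from -1.103 for miR-501-3p to -0.73 for miR-362-5p, with 4 members called beside 22.7% of all tested called lower. Between the knockouts, totals moved the median of all tested miRNAs from 0.09 to 0.35, and neither miR-501-3p (-0.44, adjusted p 0.234) nor miR-532-5p (-0.30, 0.425) was called, beside 1.29% of all tested called lower. In Mbnl2KO against WT, miR-501-3p was at -0.26 under both TMM and totals and at -0.33 under the upper quartile, and miR-532-5p was at -0.08, -0.08 and -0.14. No member was called under any of these.

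**Figure D3:**
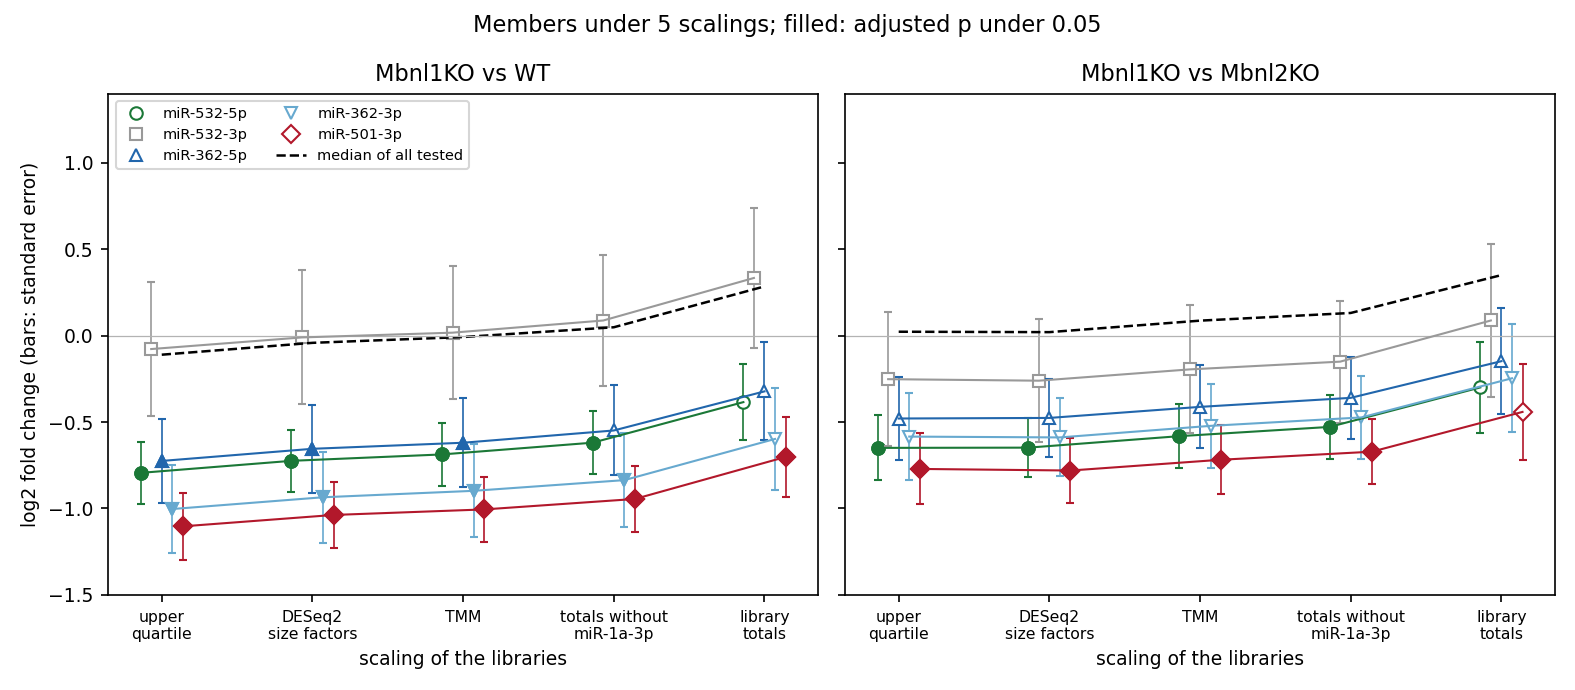
Log2 fold change with standard error of the 5 tested members under 5 scalings of the libraries, in Mbnl1KO against WT (left) and Mbnl1KO against Mbnl2KO (right), with the median of all tested miRNAs as a dashed line and filled points where the adjusted p was under 0.05. The members move in parallel with the median, which reaches 0.28 (left) and 0.35 (right) under library totals.

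Ratios of members within a library do not depend on scaling. They ask whether the members changed by the same factor. For the 10 pairs among the 5 tested members, log2 ratios (0.5 added to each count) were compared over the 3 groups by an exact permutation test over all 1680 assignments of the libraries. None of the 10 passed after Benjamini-Hochberg adjustment. The smallest exact p was 0.0429 (adjusted 0.429), for miR-532-3p over miR-501-3p, and the other adjusted p were 0.595 to 0.657.

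The log2 ratio of miR-532-5p to miR-501-3p, the dominant arms of their hairpins, was 0.35 ± 0.12 (SD, n = 3) in WT, 0.68 ± 0.52 in Mbnl1KO and 0.54 ± 0.09 in Mbnl2KO. The wide spread in Mbnl1KO came from replicates at 0.12 and 1.16 at its ends. The ratio of miR-532-3p to miR-501-3p was -4.17 ± 0.69 in WT, -3.06 ± 0.03 in Mbnl1KO and -3.58 ± 0.29 in Mbnl2KO. The Mbnl1KO values lay above all those of the other groups, although with 3 libraries against 3 an exact test of 1 pair of groups cannot go below 0.10. The ratio of the dominant arms thus differed between Mbnl1KO and WT by less than the spread between Mbnl1KO libraries. Between Mbnl2KO and WT it did not overlap, at 0.484 to 0.641 against 0.234 to 0.476, with the same limit of the exact test.

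The hairpins of miR-532, miR-501 and miR-500 kept their preferred arm in all libraries. The 3p share of both arms' counts was 5.62% ± 2.07 (SD, n = 9) for miR-532, 46.4% ± 4.61 for miR-362 and 96.7% ± 1.99 for miR-501. For miR-500, with only 95 counts in all libraries, it was 85.6% ± 12.6. The 5p arm thus dominated miR-532, the 3p arm dominated miR-501, and miR-362 gave both.

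By group, the 3p share of miR-532 was 4.43% ± 2.31 (n = 3) in WT, 7.05% ± 2.44 in Mbnl1KO and 5.37% ± 0.728 in Mbnl2KO. That of miR-362 was 48.8% ± 6.03, 44.3% ± 5.61 and 46.1% ± 1.348. That of miR-501 was 97.5% ± 1.39, 95.4% ± 3.06 and 97.1% ± 0.898. The groups overlapped for these hairpins. For single libraries the counts limit the precision. The 3p share of miR-532 was lowest in WT replicate 2 at 2.25% (exact 95% binomial interval 1.03% to 4.23%, counting error only). It was highest in Mbnl1KO replicate 3 at 9.76% (6.35% to 14.2%). In the reverse order, WT replicate 1 was at 6.85% (4.39% to 10.1%) and Mbnl1KO replicate 2 at 5.02% (2.70% to 8.43%).

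**Figure D4:**
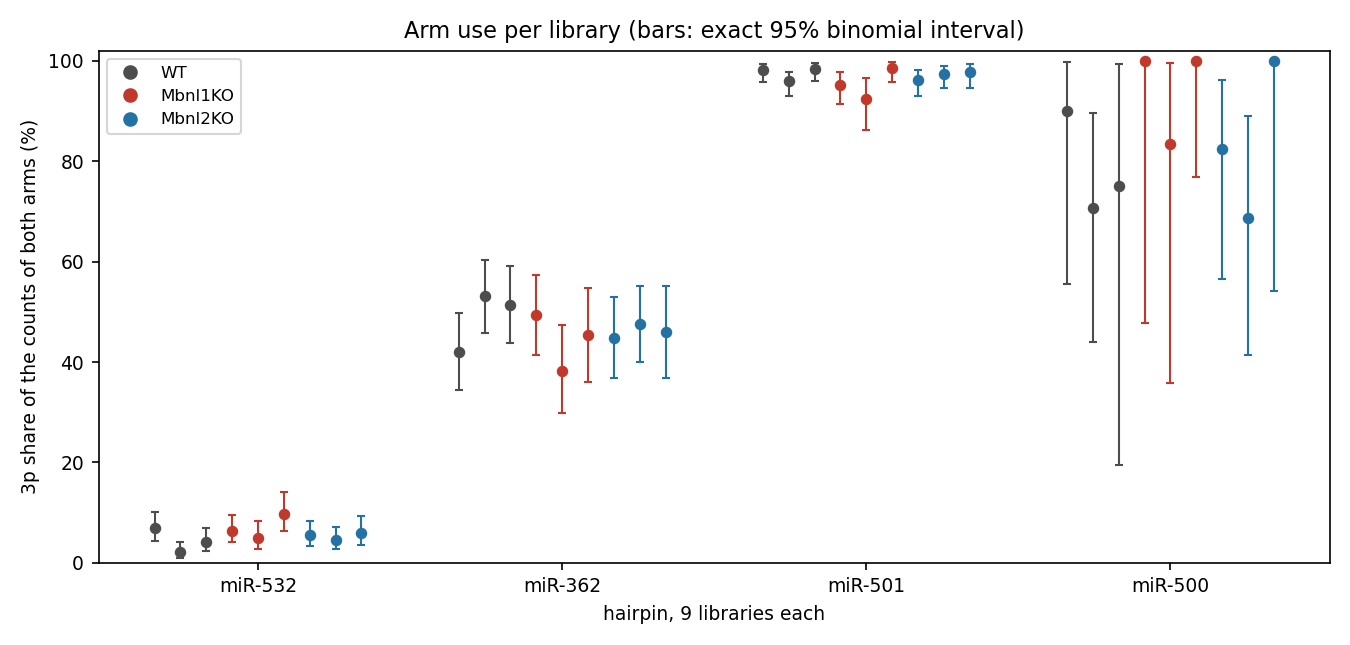
Share of the 3p arm (%) in the counts of both arms for the hairpins of miR-532, miR-362, miR-501 and miR-500, with each of the 9 libraries as a point colored by group and exact 95% binomial intervals as bars. Within a hairpin the groups overlap, while the hairpins range from 5.62% (miR-532) to 96.7% (miR-501) on average. The intervals of miR-500 are wide because it had 95 counts in all.

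Across the 9 libraries the 4 members called lower in Mbnl1KO correlated positively in all 6 pairs. The Pearson correlation of log2 normalized counts was 0.91 between miR-532-5p and miR-362-3p, 0.86 between miR-532-5p and miR-362-5p, 0.82 between miR-362-3p and miR-501-3p, 0.76 between the arms of miR-362, 0.75 between miR-532-5p and miR-501-3p and 0.64 between miR-362-5p and miR-501-3p. Those of miR-532-3p with the others were from -0.34 to 0.07. These are descriptions over 9 libraries that share the group difference and the scaling.

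Among 305 other miRNAs, those whose log2 normalized counts followed the mean of the 5 tested members most closely were miR-146b-5p (r = 0.96 over 9 libraries), miR-3058-5p (0.93), miR-378a-3p (0.93), miR-1843a-3p (0.93) and miR-223-3p (0.92). miR-378a-3p, which is encoded in the metabolic coactivator gene Ppargc1b, had 29896 ± 4155 (SD, n = 3) normalized counts in WT, 12732 ± 2591 in Mbnl1KO and 28625 ± 1132 in Mbnl2KO. miR-146b-5p had 1221 ± 481, 512 ± 22.8 and 951 ± 79.4. The miRNA with the seed of miR-362-3p, miR-329-3p, had a log2 fold change of -0.26 (SE 0.260, adjusted p 0.458 by edgeR) in Mbnl1KO against WT and was not called.

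One of these, miR-223-3p, is a miRNA of myeloid cells, and lists of miRNAs that mark other cell types are given beside it. Of 8 miRNAs of immune and blood cells, 6 could be tested, and 3 were lower and 1 higher in Mbnl1KO than in WT, beside 14.5% of all tested miRNAs lower and 33.4% called in either direction. The lower ones were miR-223-3p (-0.87), miR-142a-5p (-0.84) and miR-146a-5p (-0.49), and the higher one was miR-155-5p (0.86). Their summed level was 2721 to 3185 normalized counts in WT and 2802 to 3450 in Mbnl1KO, which overlapped, and miR-142a-3p was listed at 0. Of 7 miRNAs of vessels and connective tissue, 5 were tested and 1 was lower, near the share over all tested miRNAs, with sums of 36138 to 38271 in WT and 34304 to 49410 in Mbnl1KO, and miR-126a-3p and miR-126a-5p were listed at 0. Their part in the lower level of the cluster was not tested. The muscle miRNAs were the bulk of every library, with sums of 4600170 to 4892730 in WT and 3285780 to 4212810 in Mbnl1KO, and of 5 tested 2 were higher and 1 lower in Mbnl1KO than in WT.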

How the data were processed

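Small RNA libraries (NEXTflex Small RNA-Seq kit), 9 in all and 3 per group by their labels, were analysed. The authors deposited 1 table of raw counts of reads per mature miRNA, without normalization. Their methods describe adapter clipping, collapsing of identical reads and alignment without mismatch to miRBase precursors, with reads inside an annotated mature miRNA summed. Whether this counting made the deposited table is not stated. The submitters' processing notes name DESeq2.

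The members and all lists were chosen with earlier results of these data known. All 8 members are named whatever their values, with the second arms, tested miRNAs sharing a seed, and the 5 miRNAs most correlated with the tested members. For each comparison the 6 libraries concerned were fitted by edgeR 4.0.16 (quasi-likelihood, robust, TMM) with Benjamini-Hochberg adjustment over all tested miRNAs, for a mean of counts divided by DESeq2 size factors above 10. Rows at 0 in all libraries (1057 of 1966) were left out. This form of the filter, which follows the study's, replaced a mean of TMM-normalized counts above 10 after results under the latter had been seen. The first form tested 319 miRNAs in Mbnl1KO against WT and called 107, against 317 and 106, and gave the same number of called members in each comparison. Alternatives were other scalings, filters and thresholds, DESeq2 1.42.0, a replicate block, 1 fit of all 9 libraries and leaving out each library. TMM after the filter, the first filter and the fit without the robust option were added after the data were seen. Intervals are 95%.

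In simulated counts for Mbnl1KO against WT (316 miRNAs tested), edgeR recovered 77.3% of 2-fold and 92.7% of 3-fold changes with 1 false call among 73. Depth was 4761271 to 6277018 counts per library. Pairs of replicates differed by more than counting error. The labels do not say that the libraries of a group came from separate mice, so p-values rest on the spread between these samples. The edgeR test also shares information on this spread over all tested miRNAs, to a different extent in each comparison. A p-value is therefore not set by the libraries of 1 miRNA alone. Hairpins were placed on GRCm39 (GENCODE), and sequences are from RefSeq GRCm38.p6. Versions were R 4.3.3, Python 3.11.15 and SciPy 1.17.1, with NumPy 2.4.6, pandas 2.3.3 and, for plots, matplotlib 3.10.9.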

Additional observations from a re-analysis of the deposited data

How the results depend on the processing

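In Mbnl1KO against WT, miR-501-3p was called lower under all 19 alternatives, at -1.13 to -0.70 (adjusted p 1.7e-06 to 0.0104 by edgeR or DESeq2). With library totals 1 member was called, and miR-532-5p (-0.38), miR-362-5p (-0.32) and miR-362-3p (-0.60) were not. With a mean above 100, 70 miRNAs were called, and only miR-532-5p and miR-501-3p among the members were left to test, so that 2 were called and the other members had no value. miR-362-5p was also not called with totals without miR-1a-3p (-0.55), DESeq2 (-0.66), at least 1 count (-0.62), all 9 libraries in 1 fit (-0.55), a threshold of 0.01 (-0.62) or a replicate block (-0.63, adjusted p 0.0927 by edgeR), and leaving out 1 library at a time gave -0.81 to -0.48. miR-532-3p, never called, changed sign with DESeq2 size factors (-0.011), the upper quartile (-0.078) and DESeq2 (-0.020), and was between -0.31 and 0.42 without 1 library.

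In Mbnl2KO against WT, 17 miRNAs were called, 7 with library totals, 10 with a mean above 100, 11 with all 9 libraries in 1 fit, 6 at 0.01 and 4 to 28 without 1 library, the lowest without WT replicate 2 and the highest without Mbnl2KO replicate 3. No member was called in any, and miR-532-3p was between -0.069 and 0.64 without 1 library. In Mbnl1KO against Mbnl2KO, library totals called 0 members, with miR-532-5p at -0.30, miR-501-3p at -0.44 and miR-532-3p at 0.087. At 0.01, 44 miRNAs and 1 member were called, miR-532-5p (-0.58) being lost. Without 1 library 1 to 2 members were called, beside 57 to 76 miRNAs in all, and miR-532-5p was between -0.67 and -0.47. The cause of these changes was not tested.

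Deviations of libraries with the same replicate number correlated at -0.15 to 0.13, beside -0.16 to 0.14 for different numbers. No pairing by number was seen, although with so few libraries this cannot exclude it. The replicate block changed no other call of a member. The pseudocount of the ratios kept every direction. Counts below about 25 in miR-532-3p and below 15 in the lowest members limit what could be seen of them.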
